A study of Mus musculus with 10 samples.

Results

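The 45 genes described here, of 45882 gene IDs measured, encode chromatin enzymes and motors, subunits of their complexes, and related enzymes that act elsewhere. They were chosen by name and fall into 10 classes: class I, class IIa, and class IIb and IV histone deacetylases, sirtuins, histone acetyltransferases, Polycomb repressive complex 2, other histone methyltransferases, histone demethylases, DNA methylating and hydroxymethylating enzymes, and chromatin remodellers. Each was found in the files. RNA came from cardiac myocytes isolated from left ventricles (strain C57BL/6) and was sequenced as 10 libraries with a mouse ID each. The groups are Control (3 libraries, genotype labelled control), CTCF_knockout (4 libraries, genotype labelled as a knockout of Ctcf) and TAC (3 libraries from hearts made diseased by transverse aortic constriction, surgery that narrows the aorta and so raises the pressure the ventricle works against). The labels do not give the genotype of the TAC mice, and the age of the mice, the driver of the knockout and the time after surgery are not given in the sources used here. Levels are FPKM, sequenced fragments scaled to transcript length and library size, summed over the transcripts of a gene and rescaled between libraries.

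Histone deacetylases remove acetyl groups from histone tails, a step coupled to lower transcription, and acetyltransferases add them. Class IIa deacetylases carry little catalytic activity of their own, bind the MEF2 transcription factors in the nucleus and leave it when phosphorylated by stress-activated kinases, a route studied in hypertrophy of the heart. Polycomb repressive complex 2 and the Ehmt enzymes place repressive methyl marks on histone H3, Dot1l and Setd2 mark transcribed genes, Dnmt and Tet enzymes write and oxidise methylated cytosine, and SWI/SNF and CHD complexes use ATP to shift nucleosomes. CTCF binds DNA in a sequence-specific way and, with cohesin, anchors chromatin loops.

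Ctcf, the targeted gene, lay at 8.81, 8.34 and 6.80 FPKM in Control, at 2.90, 4.01, 2.6 and 4.42 in CTCF_knockout and at 7.32, 5.70 and 5.22 in TAC. Its log2 difference from Control was -1.02 in the knockout (limma, adjusted p = 0.00136) and -0.35 in TAC (adjusted p = 0.201). Read counts are not in the files, so depth is known only as the coverage listed per FPKM, whose median ran from 3.90 to 6.09 between libraries. Myocyte markers summed to between 31901 and 43276 FPKM in every library, but single markers moved: of 10, 5 were called in the knockout (50%, beside 20.8% of all tested genes; Actn2 rose and Myh6, Tnni3, Ryr2 and Pln fell, Ryr2 to 43.3% of the Control mean) and 3 in TAC (Actn2 rose, Tnni3 and Pln fell). Markers of other cells also moved: of 8 tested fibroblast markers 4 rose in each comparison with Control (sums of 68.7 to 133 FPKM in Control, 110 to 184 in the knockout, 143 to 167 in TAC), and the 7 tested markers of dividing cells rose in the knockout (3.87 to 4.90 in Control, 16.9 to 64.4 in the knockout, 5.97 to 12.4 in TAC). Endothelial marker sums were 76.7 to 107, 101 to 174 and 115 to 175 FPKM, and macrophage marker sums 46.8 to 68.9, 55.2 to 90.7 and 71.2 to 86.8. Smooth muscle and pericyte sums were lower in both conditions (151 to 160 in Control, 73.5 to 95.2 and 95.2 to 102), where Acta2 and Abcc9 fell, Cspg4 rose to 263% and 299% of the Control mean, and the other 5 of 8 were not called. Erythroid sums ranged from 288 to 1198 in Control, from 130 to 632 in the knockout and from 951 to 1676 in TAC, and 3 of 5 erythroid markers were called lower in knockout than in TAC, while lymphocyte sums stayed at or under 1.12, with 3 of 7 markers listed at 0 in some libraries. Of 10 endothelial markers 3 rose in the knockout and 0 in TAC, and of 10 macrophage markers 3 and 2 (limma, with 6 and 6, and 5 and 8, at an unadjusted p under 0.05). Beside these marker counts, 10.6% of all tested genes rose and 10.2% fell in the knockout. In TAC 15.5% were called (8.08% rose and 7.37% fell), and 1.7% were lower in knockout than in TAC. The part of other cells in the results below was not tested. In bulk samples, fewer cells of a type and less RNA per cell cannot be told apart.

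Some libraries stood apart by the length of the transcripts they held. For 14 members the most abundant transcript is at least 5000 nt long: Hdac4, Ep300, Crebbp, Dot1l, Setd2, Kdm6b, Dnmt1, Dnmt3a, Tet2, Tet3, Smarca2, Smarca4, Arid1a and Chd4. In control replicate 1, knockout replicate 4 and TAC replicate 1, 13 of these 14 lay above their group mean in each, against 1 of 14 in control replicate 3, knockout replicate 1 and TAC replicate 3. The pattern was that of the files as a whole: over 1652 tested genes with such long transcripts, the median deviation from the group mean was 0.15, 0.12 and 0.11 on the log2(FPKM + 1) scale in those 3 libraries. The correlation of deviation with transcript length, over genes, was 0.384, 0.358 and 0.329 there (Spearman, a description) and as low as -0.313 elsewhere. Knockout replicate 2 leaned the same way less strongly, with a correlation of 0.167 and 9 of the 14 members above the group mean. Each group holds at least 1 such library. Whether long members spread more widely within groups than shorter ones was not compared. Its cause was not tested.

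**Figure D1:**
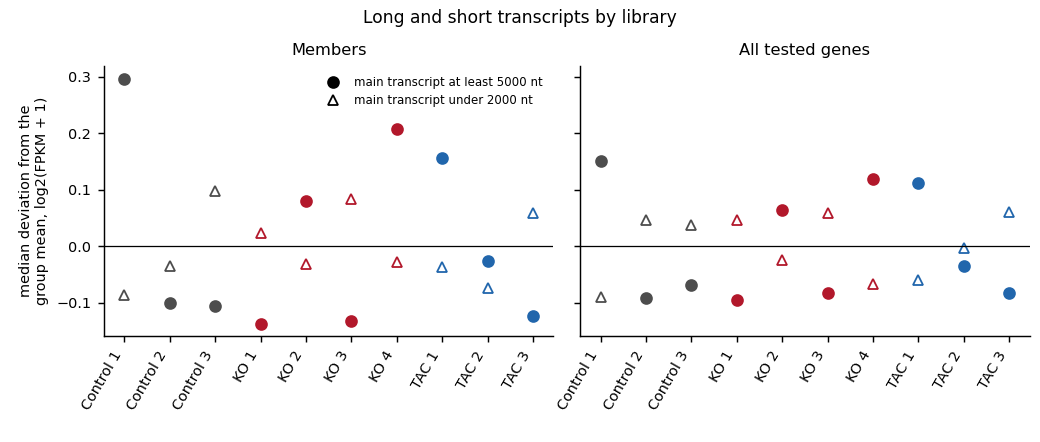
Median deviation from the group mean, in log2(FPKM + 1), of genes whose main transcript is at least 5000 nt (circles) or under 2000 nt (triangles), by library, for the members (left) and all tested genes (right). KO stands for CTCF_knockout. Control 1, KO 4 and TAC 1 hold the highest circles in both panels.

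The levels of these genes covered a wide range. Of the 45, 44 had a mean of at least 1 FPKM and were tested. Sirt6, a nuclear sirtuin, had 0.515 to 1.27 FPKM and was not. The highest member was Smyd1, a methyltransferase of striated muscle, with a mean of 150.2 FPKM over all libraries, above 97.3% of the tested genes. It was followed by Smyd2 (52.9 FPKM), the acetyltransferase Kat2b (34.1), the remodeller Chd4 (29.7) and the deacetylase Hdac5 (21.6). The lowest tested member was Ezh2, the Polycomb methyltransferase of dividing cells, at 1.1 FPKM.

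In CTCF_knockout against Control, 4 of the 44 tested members were called at an adjusted p under 0.05 (limma, adjusted over all tested genes), which is 9.09%, and 20.8% of all 11358 tested genes were called (10.6% rose and 10.2% fell). Hdac6, Smyd2 and Ehmt2 rose and Hdac11 fell. On FPKM as deposited, where the median difference of all tested genes was 0.10 in the knockout, 6 members rose and 1 fell, beside 1670 and 603 of all genes (1203 and 1159 after rescaling), with Hdac7, Tet1 and Chd4 added. The median log2 difference of the 44 was 0.00, beside -0.01 over all tested genes. The group values of 9 members did not overlap, 20.5% of those tested, where 30.8% of all tested genes did so. At an unadjusted p under 0.05 there were 12 members. Every called gene passes that level too, so at least 20.8% of all tested genes did, and the exact share was not counted. For 43 of the 44 the 95% interval lay within 1 log2 unit either side of 0, so differences of that size were outside the interval for nearly every member.

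In TAC against Control, 6 of 44 were called, 13.6% beside 15.5% of all tested genes (8.08% rose and 7.37% fell). Hdac6 and Ehmt2 rose, and Hdac2, Hdac4, Hdac11 and Sirt1 fell. On FPKM as deposited 2 rose and 3 fell, Hdac2 being lost, beside 1016 and 513 of all genes (918 and 837 after rescaling). The median log2 difference was -0.03 (0.00 over all tested genes), and 13 members had an unadjusted p under 0.05. At least 15.5% of all tested genes passed that unadjusted level. Here 16 members, 36.4%, had group values that did not overlap, where 31.6% of all tested genes did so. Both comparisons share the 3 Control libraries, so their values are only set side by side.

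**Figure D2:**
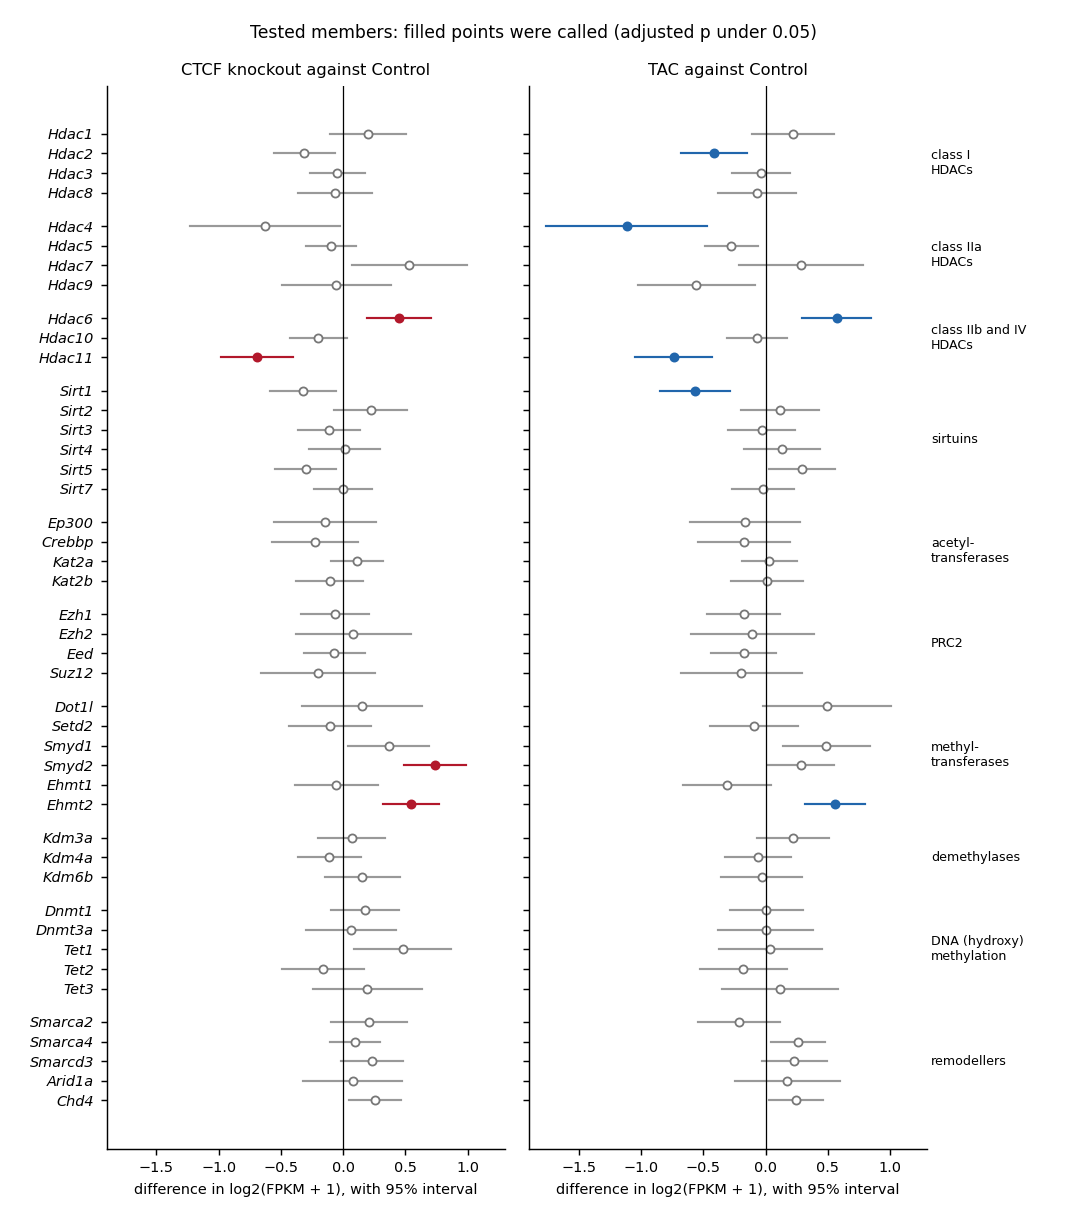
Difference in log2(FPKM + 1) from Control, with its 95% interval, for the 44 tested members by class, in CTCF_knockout (left) and TAC (right). Filled points were called at an adjusted p under 0.05: 4 on the left and 6 on the right.

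The class I deacetylases are Hdac1, Hdac2, Hdac3 and Hdac8. Hdac1 and Hdac2 form the catalytic core of nuclear corepressor complexes such as Sin3, NuRD and CoREST, and Hdac8 acts alone. Hdac2 (ENSMUSG00000019777, chromosome 10, 36974544 to 37001889, plus strand, mm10) had 16.8, 16.9 and 21.3 FPKM in Control, 15.1, 12.6, 16.3 and 14.1 in the knockout and 13.8, 13.3 and 13.2 in TAC. Every knockout and TAC library lay below every Control library. It fell in TAC (log2 difference -0.41, limma, adjusted p = 0.0377) to 73.3% of the Control mean, while in the knockout the difference was -0.31 (adjusted p = 0.069). The TAC call was not stable: it was lost under 12 of 23 alternatives, among them leaving out control replicate 2 (adjusted p = 0.0504) or 3 (0.123), knockout replicate 1 (0.0529) or 4 (0.0517), or TAC replicate 1, 2 or 3 (0.0736, 0.0901 and 0.0966). A covariate for sex in limma ended it as well (adjusted p = 0.0746).

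Hdac1 moved the other way without a call, with 3.41, 3.01 and 2.80 FPKM in Control, 2.85 to 4.51 in the knockout and 4.07, 3.74 and 3.43 in TAC. Its TAC libraries lay just above its Control libraries (log2 difference 0.22, adjusted p = 0.351). Of the 100-nt windows of its main transcript 46.8% are also found in 3 other annotated genes, Gm10093 among them, so its level is uncertain. The ratio of Hdac2 to Hdac1, looked at after the values were seen, was 4.93, 5.61 and 7.61 in Control and 3.38, 3.55 and 3.85 in TAC, with 2.83 to 5.30 in the knockout. Hdac3 varied little, at 14.7 to 16.4 FPKM in Control, 14.3 to 16.7 in the knockout and 13.6 to 17.1 in TAC, with 95% intervals of -0.27 to 0.17 and -0.27 to 0.20. Hdac8 lay between 1.03 and 1.88 FPKM in all libraries.

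Among the class IIa deacetylases, the MEF2-binding group, Hdac4 (ENSMUSG00000026313, chromosome 1, 91928779 to 92180341, minus strand) had the widest spread. It had 22.2, 15.2 and 7.25 FPKM in the Control libraries, 8.19, 8.03, 7.26 and 10.6 in the knockout, and 7.06, 4.89 and 5.43 in TAC. All TAC libraries lay below the lowest Control library, control replicate 3, itself far under the other two. Hdac4 fell in TAC (log2 difference -1.11, limma, adjusted p = 0.0256) to 38.9% of the Control mean. Leaving out control replicate 1 or 2, or TAC replicate 2 or 3, ended the call (adjusted p of 0.0696, 0.0774, 0.083 and 0.0731), as did a fit of only Control and TAC (0.0646) or no filter on low levels (0.0973). In the knockout the difference was -0.63 (adjusted p = 0.133) with overlapping groups, and without control replicate 3 it became -1.04 (adjusted p = 0.00457). Within Hdac4, the transcripts Hdac4-202 and Hdac4-206 fell in TAC as well (log2 differences -0.94 and -0.72). Neither transcript call survived the removal of every single library: without control replicate 1 or 2 or TAC replicate 1, 2 or 3 the adjusted p of Hdac4-202 was 0.0533 to 0.0739, and that of Hdac4-206 was 0.0902 to 0.121 there and 0.0611 and 0.061 without knockout replicate 2 or 4.

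Hdac5, the most abundant of the class, had 22.7, 22.9 and 25.1 FPKM in Control, 20.6 to 23.7 in the knockout and 18.8, 18.3 and 20.7 in TAC. The TAC libraries were all below the Control libraries, by a log2 difference of -0.28 that did not pass (limma, adjusted p = 0.0787). Hdac9 had 4.31, 3.14 and 6.11 FPKM in Control, 3.57 to 4.79 in the knockout and 3.52, 1.72 and 3.01 in TAC, where all 3 lay under every knockout library. Hdac7, best known from endothelial cells, had means of 1.86 ± 0.577 (SD, n = 3), 3.16 ± 0.936 (SD, n = 4) and 2.51 ± 0.848 FPKM (SD, n = 3) in the order Control, knockout and TAC, and its difference in the knockout was 0.53 (adjusted p = 0.0998).

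Summed within a library, class IIa deacetylase RNA was 51.6, 42.5 and 40.3 FPKM in Control, 37.8, 36.0, 37.7 and 39.7 in the knockout and 32.8, 26.7 and 31.6 in TAC. The 3 groups did not overlap on this sum. It is a description, since the sum was taken after the levels were known. Hdac4 made up 42.9%, 35.8% and 18.0% of it in the Control libraries, 19.2% to 26.7% in the knockout and 17.2% to 21.5% in TAC, and Hdac5 made up 44.0% to 62.3% of it in Control.

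Hdac6 and Hdac11 were called in both conditions, in opposite directions. Hdac6, a class IIb enzyme that deacetylates tubulin in the cytoplasm (ENSMUSG00000031161, chromosome X, 7930120 to 7947889, minus strand), had 3.39, 3.72 and 2.81 FPKM in Control, 4.51, 4.58, 4.79 and 5.54 in the knockout, and 4.53, 5.68 and 5.99 in TAC. No knockout or TAC library reached down into the Control range. It rose by a log2 difference of 0.45 in the knockout (limma, adjusted p = 0.0206) and of 0.57 in TAC (adjusted p = 0.0111). The knockout call ended without control replicate 3 (adjusted p = 0.0788), without knockout replicate 4 (0.0516), with the replicate number as a block (0.0766) and when its main transcript, Hdac6-202, stood in for the gene (0.128). In TAC, Hdac6-202 itself rose, with 2.46, 2.95 and 1.96 FPKM in Control and 3.86, 4.83 and 4.95 in TAC (log2 difference 0.69, adjusted p = 0.0114). Hdac10, its relative that deacetylates polyamines, had 2.74 to 2.86 FPKM in Control, 1.97 to 2.82 in the knockout and 2.56 to 2.71 in TAC, with no call.

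Hdac11 is the sole class IV deacetylase and removes long fatty acyl groups from lysine as well. It had 5.78, 5.68 and 6.26 FPKM in Control, 3.73, 2.81, 3.63 and 3.03 in the knockout, and 4.10, 2.59 and 2.88 in TAC. It was lower in all 7 libraries of both conditions than in any Control library, at 55.9% of the Control mean in the knockout and 54.0% in TAC. It fell by 0.69 on the log2 scale in the knockout (limma, adjusted p = 0.00405) and by 0.74 in TAC (adjusted p = 0.00557), and both calls held under all 22 alternatives that tested it. The direct difference between knockout and TAC was 0.05, with a 95% interval of -0.24 to 0.34. Its main transcript Hdac11-201, which holds 97.1% of the gene's RNA, fell in both comparisons too, in TAC only with control replicate 3 and TAC replicates 2 and 3 in the fit (adjusted p of 0.0508, 0.054 and 0.0593 without them). An annotated gene on the opposite strand, Gm14573, overlaps its exons, and how the counting used strand is not given in the sources used here. Opposite-strand genes also overlap exons of the called members Hdac4 (Gm26720), Sirt1 (Gm16145) and Smyd2 (Gm37422).

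Hdac11 (ENSMUSG00000034245, chromosome 6, 91156665 to 91174692, plus strand) is also a member whose RefSeq promoter window holds the core of the CTCF motif (CC, any 3 bases, AG, any 2 bases, GGC). The stretch just before its annotated first exon is printed because it belongs to the member that fell in both conditions. It lies at chr6:91156565-91156664 (GRCm38.p6, plus strand) and begins 250 bases before the RefSeq start. Its capitals mark a motif match 167 to 156 bases before that start. A second match, on the opposite strand 19 to 30 bases after that start, lies outside the printed stretch.
Hdac11: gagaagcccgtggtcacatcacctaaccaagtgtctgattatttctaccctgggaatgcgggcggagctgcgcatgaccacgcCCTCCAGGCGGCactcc
A match describes letters and shows no binding. The motif, searched on both strands from 250 bases before to 50 after each RefSeq start, was found in 7 of the 41 members with a promoter entry (17.1%; Dnmt3a, Ep300, Hdac11, Kat2a, Setd2, Sirt3 and Tet3) and in 9.84% of all 27025 genes with one. Of these 7 members only Hdac11 was called.

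**Figure D3:**
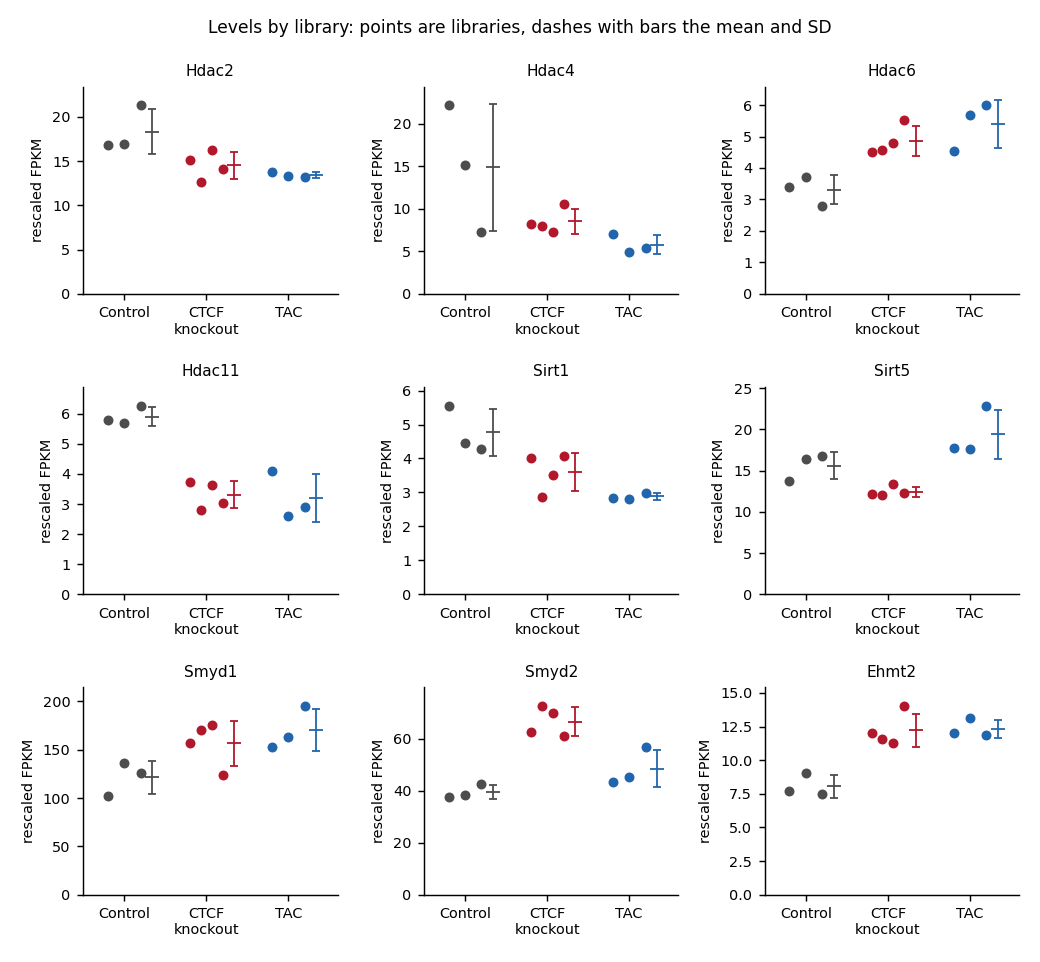
Rescaled FPKM by library of the 8 members called in any comparison, and of Smyd1, the highest member. Points are libraries, and dashes with bars give the mean and SD (n = 3, 4 and 3). Hdac11 lies at 5.68 to 6.26 in Control and at or under 4.10 in every other library.

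Sirtuins are deacylases that need NAD, the redox cofactor, and Sirt3, Sirt4 and Sirt5 act in mitochondria. Sirt1, a nuclear deacetylase (ENSMUSG00000020063, chromosome 10, 63319005 to 63381704, minus strand), had 5.55, 4.46 and 4.29 FPKM in Control, 4.0, 2.86, 3.52 and 4.07 in the knockout and 2.84, 2.80 and 3.0 in TAC. Each knockout and TAC library was below each Control library. Sirt1 fell in TAC (log2 difference -0.57, limma, adjusted p = 0.0126) to 60.4% of the Control mean, and its knockout difference of -0.32 did not pass (adjusted p = 0.0795). The TAC call was lost with its most abundant transcript in place of the gene (adjusted p = 0.205).

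Sirt5, the mitochondrial desuccinylase (ENSMUSG00000054021, chromosome 13, 43370710 to 43395202, plus strand), lay on opposite sides of Control in the 2 conditions. It had 13.7, 16.4 and 16.8 FPKM in Control, 12.1, 12.1, 13.4 and 12.3 in the knockout, and 17.7, 17.7 and 22.9 in TAC. The 3 groups did not overlap: every knockout library was below Control and every TAC library above it. Neither difference from Control passed (log2 differences -0.30 and 0.29, adjusted p = 0.0818 and 0.127 in limma). The difference between knockout and TAC did, at -0.59 with a 95% interval of -0.84 to -0.35 (adjusted p = 0.0187), and Sirt5 was the only member called in that comparison. The call ended without knockout replicate 1 (adjusted p = 0.0554), without TAC replicate 3 (0.0565) and on FPKM as deposited (0.0754).

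The other sirtuins stayed close to Control. Sirt2 had means of 17.6 ± 3.08 (SD, n = 3), 20.4 ± 0.458 (SD, n = 4) and 19.1 ± 3.47 FPKM (SD, n = 3) in Control, knockout and TAC. Sirt3, the main mitochondrial deacetylase, had 17.7 to 23.3 FPKM in Control, 16.2 to 20.1 in the knockout and 18.4 to 20.9 in TAC. Sirt4 ranged from 5.69 to 8.72 and Sirt7 from 3.09 to 4.35 FPKM over all libraries. Their 95% intervals lay between -0.36 and 0.51 in both comparisons with Control.

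None of the 4 acetyltransferases was called in any comparison, and none had an unadjusted p under 0.05 in limma. Kat2b (PCAF) was the most abundant, at 31.2, 36.7 and 37.1 FPKM in Control, 36.9, 32.9, 27.8 and 32 in the knockout, and 31.4, 33.7 and 40.9 in TAC. Its paralog Kat2a (GCN5) had a mean of 3.06 ± 0.107 FPKM (SD, n = 3) in Control, 3.39 ± 0.0995 (SD, n = 4) in the knockout and 3.16 ± 0.420 (SD, n = 3) in TAC, with the knockout libraries above Control. Ep300, with 10.9, 7.33 and 5.75 FPKM in Control, and Crebbp, with 7.84, 5.45 and 5.32, both have long transcripts and were highest in the libraries described above. Their intervals for the knockout were -0.56 to 0.27 and -0.57 to 0.12.

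Polycomb repressive complex 2 consists of the methyltransferase Ezh1 or Ezh2 with the scaffold Suz12 and the reader Eed. No gene of the 4 was called in any comparison, and no unadjusted p was under 0.05 in limma. Ezh1, the form of non-dividing cells (ENSMUSG00000006920, chromosome 11, 101191115 to 101226463, minus strand), had 9.18, 8.16 and 7.39 FPKM in Control, 9.07, 7.54, 7.56 and 7.11 in the knockout, and 6.32, 8.72 and 6.62 in TAC. Ezh2 had 1.5, 0.862 and 0.874 FPKM in Control, 1.27, 0.825, 0.740 and 2.14 in the knockout, and 1.37, 0.679 and 0.766 in TAC. Ezh1 exceeded Ezh2 in all 10 libraries, from 3.32-fold in knockout replicate 4, which also had the highest sum of dividing cell markers (64.4 FPKM), to 12.9-fold in TAC replicate 2. Suz12 and Eed had Control means of 4.47 ± 1.55 and 5.03 ± 0.607 FPKM (SD, n = 3) and intervals of -0.66 to 0.25 and -0.32 to 0.17 in the knockout.

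The steady sum of Ezh1 covered an exchange between 2 of its 9 annotated transcripts. Ezh1-202 was listed at 0.0110, 0.00882 and 0.00933 FPKM in Control and at 0.00774, 0.0100 and 0.00606 in TAC, but at 5.82, 6.00, 4.54 and 3.01 FPKM in the knockout. Ezh1-203 had 7.09, 7.16 and 6.62 FPKM in Control and 5.36, 6.83 and 5.54 in TAC, and 1.64, 0.709, 2.16 and 3.03 in the knockout. As shares of the gene, Ezh1-202 held 42.3% to 79.5% in the knockout libraries and at most 0.126% in the others. Ezh1-203 held 9.4% to 42.6% and 77.3% to 89.6%.

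The transcript Ezh1-202 rose in the knockout against Control (log2 difference 2.50, limma over 17685 transcripts, adjusted p = 1.02e-04) and lay above TAC by as much (2.50, adjusted p = 8.72e-04). Ezh1-203 fell (log2 difference -1.53, adjusted p = 0.00323) and lay below TAC (-1.32, adjusted p = 0.0383). This last call ended without control replicate 1, 2 or 3, knockout replicate 1 or 3, or TAC replicate 1, 2 or 3 (adjusted p from 0.0519 to 0.144). A covariate for sex in limma ended it as well (adjusted p = 0.102). Because Ezh1-202 is near 0 elsewhere, its difference depends on the pseudocount: it ran from 0.96 to 5.44 over the 20 alternatives, and all 20 kept the call against Control. The upper ends of the 95% intervals that Cufflinks listed for Ezh1-202 were at most 0.0439 FPKM in the Control and TAC libraries, and the lower ends were at least 2.56 in the knockout libraries. Among all 109869 transcripts, this was the only one under 0.1 FPKM in each of the 6 Control and TAC libraries and at 1 FPKM or more in each of the 4 knockout libraries, and none had the reverse pattern. That rule was set after the values of Ezh1 were seen.

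The annotation separates these transcripts by very little. Both are protein-coding with 21 exons and share all 20 introns, and their lengths are 4207 and 4193 nt. Ezh1-202 starts 13 bases further upstream, at position 101226463, and ends 1 base further downstream. The window before its start is printed because the 2 transcripts differ only at this end and by that last base. It lies at chr11:101226451-101226713 (GRCm38.p6, minus strand, read 5′ to 3′ along the gene), and the RefSeq start is the start of Ezh1-202. The capitals mark a match to AGNNGGCGC, a shortened CTCF-like core chosen after this sequence was seen, and, at the end, the 13 transcribed bases that are only in Ezh1-202.
Ezh1: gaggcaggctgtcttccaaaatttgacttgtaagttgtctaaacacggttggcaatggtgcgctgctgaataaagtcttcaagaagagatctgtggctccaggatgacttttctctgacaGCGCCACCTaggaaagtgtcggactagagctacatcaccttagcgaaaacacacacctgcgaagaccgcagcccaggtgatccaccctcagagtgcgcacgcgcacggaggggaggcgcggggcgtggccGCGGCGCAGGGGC
The match lies 130 to 122 bases before the start, on the strand opposite to the gene. The same letters occur, on either strand, in a promoter window of 8 of the 41 members (19.5%) and of 8.19% of all genes with one. Ezh1 is among the 8, and its match was fixed by the choice of the letters, so the 2 shares are not an even comparison. Apart from these 14 bases the transcripts are the same in sequence, and the fragments behind the listed values are not in the files used here. How much of the exchange reflects the position of the start and how much the assignment by Cufflinks was not tested.

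**Figure D4:**
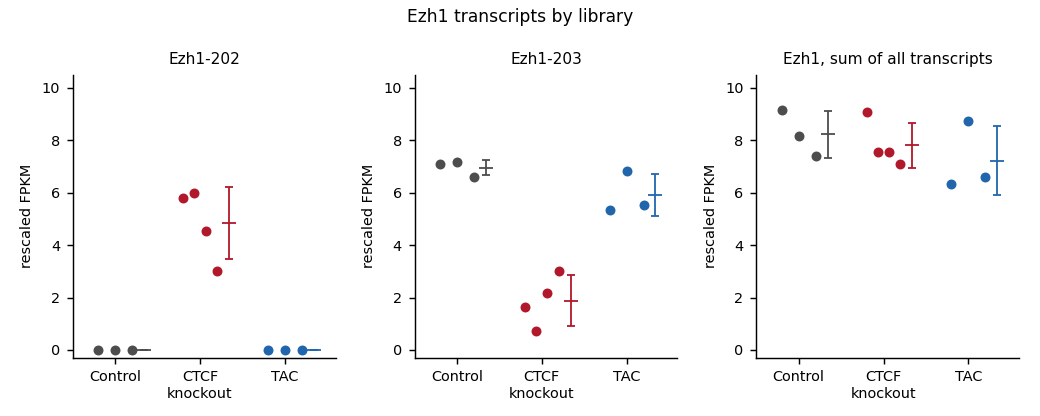
Rescaled FPKM by library of Ezh1-202, Ezh1-203 and the sum of all Ezh1 transcripts. Points are libraries, and dashes with bars give the mean and SD. Ezh1-202 lies at 3.01 to 6.00 in CTCF_knockout and at 0.0110 or less elsewhere, while the sums of the groups overlap.

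The other methyltransferases held the 2 most abundant members and the highest difference in the knockout. Smyd2, which methylates histone H3 and proteins of the cytoplasm (ENSMUSG00000026603, chromosome 1, 189880492 to 189922363, minus strand), had 37.4, 38.3 and 42.4 FPKM in Control, 62.5, 72.4, 69.8 and 61.1 in the knockout, and 43.3, 45.4 and 56.7 in TAC. The knockout libraries lay above all others, and the TAC libraries above Control. Smyd2 rose in the knockout to 169% of the Control mean (log2 difference 0.74, limma, adjusted p = 0.00114), and this call held under all 23 alternatives. In TAC the difference was 0.29 (adjusted p = 0.141), and between knockout and TAC it was 0.45 with a 95% interval of 0.20 to 0.70 (adjusted p = 0.0549). Its main transcript Smyd2-201 rose in the knockout as well, from 28.6 ± 4.17 (SD, n = 3) to 51.1 ± 6.67 FPKM (SD, n = 4).

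Smyd1, needed for sarcomere assembly (ENSMUSG00000055027, chromosome 6, 71213940 to 71322233, minus strand), had 102, 136 and 126 FPKM in Control, 157, 170, 176 and 124 in the knockout, and 153, 163 and 195 in TAC. Knockout replicate 4 fell inside the Control range and the other libraries of both conditions lay above it. The differences were 0.36 (limma, adjusted p = 0.107) and 0.49 (adjusted p = 0.0591), and leaving out knockout replicate 4 put both past the threshold (adjusted p of 0.0349 and 0.0346). Of its transcripts, Smyd1-202 rose in both, from 37.5 ± 5.93 (SD, n = 3) to 54.7 ± 6.17 (SD, n = 4) and 58.7 ± 6.48 FPKM (SD, n = 3). Its knockout call ended without control replicate 1 or 2 or knockout replicate 1, 2 or 3 (adjusted p from 0.0554 to 0.0822), and its TAC call without control replicate 1 (0.0595) or TAC replicate 3 (0.0762). The ratio of Smyd1 to Smyd2 within a library was 2.73, 3.56 and 2.96 in Control and 3.53, 3.60 and 3.44 in TAC, and lower, at 2.51, 2.35, 2.52 and 2.03, in all knockout libraries.

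Ehmt2 (G9a), which dimethylates lysine 9 of histone H3 as a dimer with Ehmt1 (ENSMUSG00000013787, chromosome 17, 34898469 to 34914052, plus strand), had 7.71, 9.05 and 7.46 FPKM in Control, 12, 11.6, 11.2 and 14.0 in the knockout, and 12, 13.1 and 11.9 in TAC. Its lowest value in either condition exceeded its highest in Control. Ehmt2 rose in both, by log2 differences of 0.54 (limma, adjusted p = 0.00388) and 0.56 (adjusted p = 0.00678). Both calls ended only where the most abundant of its 14 transcripts stood in for the gene (adjusted p of 0.22 and 0.46). Its partner Ehmt1 had 7.23, 4.85 and 6.12 FPKM in Control, 4.98 to 6.82 in the knockout and 5.86, 4.0 and 4.23 in TAC, with differences of -0.06 and -0.31 and no call. The ratio of Ehmt2 to Ehmt1 was 1.07, 1.87 and 1.22 in Control, 1.70 to 2.42 in the knockout and 2.05 to 3.28 in TAC, where the TAC libraries lay above all Control libraries.

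Dot1l, which methylates lysine 79 of histone H3, had 4.77, 3.27 and 2.73 FPKM in Control, 2.61, 5.78, 3.53 and 4.76 in the knockout and 6.07, 6.13 and 4.11 in TAC. Its TAC difference of 0.50 had an interval of -0.02 to 1.01 (limma, adjusted p = 0.182). Setd2, which trimethylates lysine 36 of histone H3, had means of 8.89 ± 1.98 (SD, n = 3), 8.16 ± 1.41 (SD, n = 4) and 8.21 ± 0.954 FPKM (SD, n = 3) in Control, knockout and TAC.

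The demethylases Kdm3a, Kdm4a and Kdm6b, which act on lysines 9, 36 and 27 of histone H3 among others, were not called, and none had an unadjusted p under 0.05 in limma. Kdm3a had 5.03, 3.90 and 4.19 FPKM in Control and 5.31, 5.29 and 5.10 in TAC, where the groups were just apart (log2 difference 0.22, adjusted p = 0.291). Kdm4a ranged from 6.59 to 9.07 FPKM over all libraries and Kdm6b from 1.53 to 2.64.

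The enzymes of DNA methylation were not called either, with 1 unadjusted p under 0.05 in the knockout, 0 in TAC and 1 in knockout against TAC (limma). The gene concerned is Tet1, which oxidises methylcytosine. It had 1.13, 0.641 and 1.06 FPKM in Control, 1.81, 1.04, 1.86 and 2.18 in the knockout, and 1.43, 0.681 and 0.91 in TAC. The knockout difference was 0.48 (adjusted p = 0.0795), and it passed without knockout replicate 2 (adjusted p = 0.0298). Dnmt1, the maintenance methyltransferase of replicating DNA, had 3.19, 2.82 and 2.90 FPKM in Control, 3.06, 2.94, 3.62 and 4.42 in the knockout and 3.37, 2.95 and 2.67 in TAC, with its highest value in knockout replicate 4. Dnmt3a, the de novo enzyme, had means of 5.22 ± 0.614 (SD, n = 3), 5.49 ± 0.398 (SD, n = 4) and 5.39 ± 1.97 FPKM (SD, n = 3). Tet2, the most abundant Tet gene, lay between 3.72 and 6.83 FPKM, and Tet3 between 0.751 and 2.12.

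Of the 5 remodellers none was called, with 1, 2 and 1 unadjusted p under 0.05 in the 3 comparisons (limma), and 3 lay apart from Control in TAC, where 31.6% of all tested genes did. Chd4, the ATPase of the NuRD complex, had 27.9, 26.7 and 23.7 FPKM in Control, 29.4, 31.8, 29.9 and 34.3 in the knockout and 32.2, 30.6 and 30.3 in TAC. All 7 libraries lay above Control, but the differences of 0.26 and 0.24 did not pass (limma, adjusted p = 0.0766 and 0.125). Smarcd3 (BAF60c), a SWI/SNF subunit of heart and skeletal muscle, had 16.8, 18.3 and 19.4 FPKM in Control, 17.9 to 23.5 in the knockout and 19.6, 21.4 and 23.6 in TAC. Its retained-intron transcript Smarcd3-205 rose in the knockout, where its mean was 2.69 ± 0.567 FPKM (SD, n = 4) against 1.16 ± 0.373 in Control (SD, n = 3), a log2 difference of 0.77 (limma, adjusted p = 0.0108). Arid1a, the largest SWI/SNF subunit, ranged from 4.23 to 7.61 FPKM over all libraries. Summed over the 5 remodellers, levels were 79.8, 76.9 and 75.8 FPKM in Control, 88.5 to 90.9 in the knockout and 84.6 to 88.9 in TAC, with both conditions above Control. This sum is a description too, and other class sums also lay apart from Control. Class IIb and IV deacetylases were below it and other methyltransferases above it in both conditions. Class I was below it in TAC and acetyltransferases in the knockout. Sums of sirtuins, Polycomb repressive complex 2, demethylases and DNA methylation enzymes overlapped Control.

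Smarca2 (BRM) and Smarca4 (BRG1) are the alternative motors of SWI/SNF complexes. Smarca2 had 15.5, 12.1 and 15.0 FPKM in Control, 19.6, 14.8, 15.7 and 16.2 in the knockout and 12.4, 14.2 and 9.78 in TAC. Smarca4 had 13.0, 14.7 and 13.5 FPKM, then 13.4, 15.6, 14.7 and 15.4, then 17.0, 17.5 and 15.5 in the same order. Neither was called (adjusted p from 0.102 to 0.519 against Control). Their ratio within a library, Smarca4 over Smarca2, was 0.840, 1.22 and 0.902 in Control and 0.682, 1.06, 0.939 and 0.949 in the knockout, against 1.37, 1.23 and 1.58 in TAC. The TAC libraries lay above all others, though TAC replicate 2 only just above control replicate 2, and the ratio was looked at after the levels were seen.

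**Figure D5:**
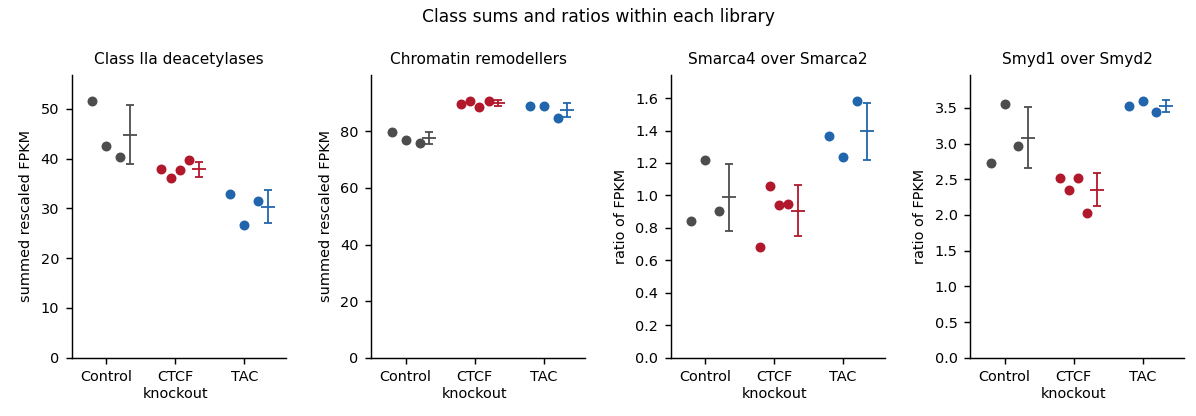
Class IIa deacetylase and remodeller levels summed within each library (rescaled FPKM), and the ratios Smarca4 over Smarca2 and Smyd1 over Smyd2. Points are libraries, and dashes with bars give the mean and SD (n = 3, 4 and 3). The class IIa sums run from 40.3 to 51.6 in Control, 36.0 to 39.7 in CTCF_knockout and 26.7 to 32.8 in TAC.

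Set directly against each other, knockout and TAC differed in few members. Sirt5 was the 1 call among 44 (2.27%, beside 3.28% of all tested genes, 1.58% higher and 1.7% lower in the knockout), and 5 members had an unadjusted p under 0.05 (limma). At least 3.28% of all tested genes passed that unadjusted level. On FPKM as deposited Sirt5 did not pass (adjusted p = 0.0754), and all tested genes split into 212 higher and 120 lower in the knockout (179 and 193 after rescaling), while with quantile normalization Smyd2 was added on the higher side (adjusted p = 0.0113). The groups did not overlap for 5 members, 11.4%, against 18.1% of all tested genes: Hdac4, Hdac9, Smyd2 and Smarca2 were higher in the knockout and Sirt5 lower. The largest of these differences in size, -0.59 for Sirt5, was followed by 0.50 for Hdac9 (95% interval 0.06 to 0.94, adjusted p = 0.213) and 0.49 for Hdac4 (-0.12 to 1.09, adjusted p = 0.384).

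Over all members the files list 333 transcripts, of which 75, from 40 genes, had a mean of at least 1 FPKM and were tested. In the knockout 7 of the 75 were called, 9.33% beside 14.6% of all tested transcripts (limma). Ezh1-202, Smyd1-202, Smyd2-201, Ehmt1-203 and Smarcd3-205 rose, and Hdac11-201 and Ezh1-203 fell. Ehmt1-203, the most abundant transcript of Ehmt1, had 1.06, 0.961 and 1.67 FPKM in Control and 1.83, 2.14, 2.30 and 2.64 in the knockout, while the gene sum was not called. Its call ended without control replicate 1 or 2 or knockout replicate 2, 3 or 4 (adjusted p from 0.0668 to 0.106). In TAC, where 10.1% of tested transcripts were called, Chd4-202 rose (log2 difference 0.33, adjusted p = 0.0486) beside those named above, a call that was lost without any single library but control replicate 2 (adjusted p from 0.0649 to 0.126). In knockout against TAC, 0.956% were called, and of the members' transcripts these were Ezh1-202, Ezh1-203 and Sirt5-201, the single transcript of that gene (adjusted p = 0.047, and 0.0604 to 0.122 without any library but control replicate 1).

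The MEF2 element, the DNA sequence through which class IIa deacetylases are recruited, was searched with only A or T allowed in its centre, on both strands of the same RefSeq windows. It occurred in 1 of the 41 members (2.44%) and in 0.636% of all genes, counting every RefSeq start of a gene. The match is in Hdac5 and is printed because that gene is itself one of the MEF2-binding class. Capitals mark it in a stretch at chr11:102230173-102230212 (minus strand, GRCm38.p6), read along the gene.
Hdac5: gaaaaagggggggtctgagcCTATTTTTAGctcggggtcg
Among the MEF2 factors themselves, Mef2a fell in both, with 38.4, 35.4 and 43.6 FPKM in Control, 29.2, 27.0, 29.1 and 31.7 in the knockout and 26.5, 25.0 and 23.1 in TAC. Its log2 differences were -0.40 (limma, adjusted p = 0.0152) and -0.63 (adjusted p = 0.0029), and the knockout call ended without control replicate 3 (adjusted p = 0.0637) and on FPKM as deposited (-0.28, adjusted p = 0.133).

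The partners of these enzymes were read from 11 lists of other chromatin genes, 168 found and 153 tested. Of these 14 were called in the knockout (11 rose, 3 fell; 9.15%) and 13 in TAC (5 rose, 8 fell; 8.5%), below the shares of all tested genes given above, and 4 were higher in the knockout than in TAC (2.61%). On FPKM as deposited 18 rose and 1 fell in the knockout and 6 rose and 6 fell in TAC. The median differences were -0.02 and -0.03.

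Corepressor partners of the class I deacetylases gave 4 rises and 0 falls among 23 tested in the knockout. That is 17.4% called, beside 20.8% of all tested genes (10.6% rose). The 4 were the scaffold Sin3b (22.0 ± 3.06 to 31.9 ± 3.85 FPKM; SD, n = 3 and 4), the CoREST subunits Rcor2 and Kdm1a (LSD1, a demethylase of lysine 4 of histone H3), and Sap30. Sap30 had 4.52 to 6.64 FPKM in Control and 6.78 to 10.6 in the knockout. The Kdm1a difference was 0.32 (limma, adjusted p = 0.0211). Single libraries ended each of these calls: control replicate 1 or 3 for Sin3b (adjusted p of 0.0599 and 0.0569), control replicate 2 or knockout replicate 2 or 4 for Rcor2 (0.0882, 0.0641 and 0.0509), control replicate 3 or knockout replicate 2 for Kdm1a (0.075 and 0.0567), and control replicate 1 or 2 or knockout replicate 2 or 3 for Sap30 (0.0784 to 0.103). The replicate block ended those of Rcor2 and Kdm1a (0.0696 and 0.0874), and testing without a filter on low levels ended those of Rcor2 and Sap30 (0.0719 and 0.0955). In TAC, Rcor2 rose (adjusted p = 0.0498, and 0.0585 to 0.164 without any single library but TAC replicate 2) and Chd3, the NuRD ATPase related to Chd4, fell (2.53, 2.75 and 3.13 FPKM in Control, 1.42, 1.32 and 1.08 in TAC; log2 difference -0.74, adjusted p = 0.00277). Chd3 in the knockout, at 2.19 to 2.92 FPKM, lay above TAC by 0.64 (adjusted p = 0.017, and 0.0579, 0.0545 and 0.0595 without knockout replicate 3, TAC replicate 2 and TAC replicate 3). The same call ended with its main transcript in place of the gene (0.52, adjusted p = 0.2), with the replicate block (0.068) and with no filter (0.0511).

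Of 18 tested Polycomb partners, 3 rose and 0 fell in the knockout. That is 16.7% called, beside 20.8% of all tested genes (10.6% rose). In TAC 1 rose and 1 fell (11.1%, beside 15.5% of all tested genes). Pcgf5, a subunit of variant Polycomb repressive complex 1, had 10.9, 11.9 and 12.6 FPKM in Control, 21.4, 26.5, 25.8 and 26.0 in the knockout and 18.0, 17.0 and 21.0 in TAC. It rose in both, by 1.02 (limma, adjusted p = 1.14e-04) and 0.62 (adjusted p = 0.00482) on the log2 scale, and its TAC call ended with its main transcript in place of the gene (adjusted p = 0.564). Pcgf6 and Phf1 rose in the knockout too (log2 differences 0.51 and 0.36), and the Phf1 call ended without control replicate 2 or 3 or knockout replicate 1 or 3 (adjusted p from 0.063 to 0.0928) and with the replicate block (0.085). Cbx7, a Polycomb subunit that reads methylated lysine 27 of histone H3, fell in TAC and was not called in the knockout: it had 5.23, 5.33 and 4.96 FPKM in Control, 4.79, 4.84, 4.79 and 5.64 in the knockout and 2.21, 2.68 and 2.52 in TAC. Its TAC difference was -0.83 (adjusted p = 4.05e-04), and knockout and TAC differed by 0.79 (adjusted p = 0.00336).

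Among other methyltransferases, 2 of 16 rose and 0 fell in the knockout, both risers being arginine methyltransferases. That is 12.5% called, beside 20.8% of all tested genes (10.6% rose). Prmt2 had 1.90, 2.83 and 3.4 FPKM in Control, 5.51, 5.36, 5.62 and 5.98 in the knockout and 4.37, 5.65 and 4.89 in TAC, and rose in both (log2 differences 0.86 and 0.70, limma, adjusted p = 0.00139 and 0.00871). Carm1 had 7.46, 7.93 and 7.31 FPKM in Control, 11.3, 11.6, 11 and 10.4 in the knockout and 8.30, 8.18 and 8.03 in TAC. It rose in the knockout (0.49, adjusted p = 0.00185) and lay 0.40 above TAC (adjusted p = 0.0262, and 0.0669 to 0.0866 without knockout replicate 1, 2 or 3 or TAC replicate 1, 2 or 3). With the main transcript of Carm1 in place of the gene this difference was 0.18 (adjusted p = 0.349), and the replicate block and a covariate for sex, read from Xist and Y-linked genes, ended the call too (0.0715 and 0.0662). Smyd3, a relative of Smyd1 and Smyd2, fell in TAC from 3.4 ± 0.298 to 2.09 ± 0.385 FPKM (SD, n = 3 each). Setd7, which methylates lysine 4 of histone H3 and many other proteins, rose in both (0.66 and 0.62). It was the 1 call of 13 in its list of lysine 4 methyltransferase complexes (7.69%, beside 20.8% and 15.5% of all tested genes).

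In the remaining lists, Dpf3 (BAF45c), a SWI/SNF subunit of the developing heart, was the 1 call of 19 (5.26%, beside 20.8% and 15.5% of all tested genes). It fell in both, from 7.53 ± 1.16 (SD, n = 3) to 4.46 ± 0.362 (SD, n = 4) and 3.84 ± 0.186 FPKM (SD, n = 3). With the main transcript of Dpf3 in place of the gene both calls ended, at log2 differences of -0.23 and -0.24 instead of -0.64 and -0.81 (adjusted p = 0.207 and 0.244). Smarca5, the ISWI motor, fell in the knockout (log2 difference -0.38, limma, adjusted p = 0.0448), a call that 12 of 23 alternatives did not keep, among them leaving out control replicate 1 or 3, any knockout replicate or TAC replicate 1 (adjusted p from 0.0531 to 0.15). Tdg, the glycosylase that removes oxidised methylcytosine made by Tet enzymes, rose in both (0.54 and 0.58, adjusted p = 0.00414 and 0.00562), its TAC call ending with its main transcript in place of the gene (0.37, adjusted p = 0.17). Gadd45a, a partner in demethylation, fell in TAC (-0.93, adjusted p = 0.0185) and was higher in the knockout than in TAC (0.92, adjusted p = 0.0421). The TAC call of Gadd45a ended without control replicate 2 or TAC replicate 2 or 3 (0.061 to 0.0665). Its other call ended without control replicate 2 or 3, knockout replicate 1, 2 or 3, or TAC replicate 2 or 3 (0.0508 to 0.151). That other call also ended with the main transcript (0.153) and with the sex covariate (0.0736). Neither call held with no filter (0.0735 and 0.136). The heterochromatin proteins Cbx1 and Cbx3 fell in TAC (-0.43 and -0.41), Cbx1 only with control replicate 3 and TAC replicates 1 and 3 in the fit (adjusted p of 0.0974, 0.0669 and 0.105 without them). Both calls ended on FPKM as deposited (0.056 and 0.0724) and in a fit of only Control and TAC (0.0802 and 0.0525), and that of Cbx3 ended with its main transcript (0.333). None of the 15 other acetyltransferases and bromodomain readers and none of the 16 other histone demethylases was called in any comparison, with at most 3 unadjusted p under 0.05 per list and comparison (limma). Of all tested genes 20.8%, 15.5% and 3.28% were called in the knockout, in TAC and in knockout against TAC.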

How the data were processed

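How RNA was selected is uncertain: the labelled molecule is polyA RNA, and the protocol describes Ribo-Zero depletion of ribosomal RNA before stranded libraries. The authors' deposited Cufflinks files hold FPKM per transcript in a text attribute (109869 transcripts per library, aligned to mm10 with TopHat2 2.1.0 and quantified with Cufflinks 2.2.1, per the submitters' processing notes), and a Cufflinks score, also deposited by the authors, that was not used. Transcript FPKM was summed by gene ID and rescaled by the median of ratios (factors 0.912 to 1.10). Genes with a mean of at least 1 FPKM and a transcript of at least 300 nt were tested, and 22 gene IDs were set aside that had 0 in part of the libraries but a median of at least 100 FPKM in the rest, a rule set after values were seen. log2(FPKM + 1) of all 10 libraries was fitted with limma 3.58.1 (R 4.3.3, trended variance), two-sided, with Benjamini-Hochberg adjustment, and the pseudocount understates changes of low genes. On simulated data for the knockout comparison (11358 genes), 92% of genes changed by 1 log2 unit were recovered and 6.34% of calls were false, and 66% of such transcripts (of 17685). The simulation drew each gene independently and left out the library pattern by transcript length, so these rates may not hold for the real libraries. A group's libraries carry separate mouse IDs. Same-numbered libraries do not pair (deviations correlated from -0.36 to 0.33). The members and lists were chosen with earlier results of these data known. Named genes were the members called or highest in their class and, per related list, up to 4 called genes by adjusted p in the knockout and up to 3 in each other comparison. Promoter sequences are from RefSeq (GRCm38.p6), which matched 41 of 45 members.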

Additional observations from a re-analysis of the deposited data

Results flagged for a closer look

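For the members and partner genes below, the effect in CTCF_knockout and the effect in TAC, each against the same Control libraries, differed by the direct test between the conditions (limma, adjusted p under 0.05). No member had a library far from the rest of its group among the 45 groups of 4 knockout libraries examined. The differences, knockout minus TAC on the log2 scale, were -0.59 for Sirt5 (adjusted p = 0.0187), the same -0.59 for its single transcript Sirt5-201 (adjusted p = 0.047), 2.50 for Ezh1-202 (adjusted p = 8.72e-04) and -1.32 for Ezh1-203 (adjusted p = 0.0383). Among partner genes they were 0.64 for Chd3, 0.40 for Carm1, 0.79 for Cbx7 and 0.92 for Gadd45a. Of these 8 differences, those of Ezh1-202 and Cbx7 stayed called under every alternative that tested them (20 and 22).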

How the results depend on the processing

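Counts of called members stayed within 1.5 times of the value given for 21 of 23 alternatives in knockout against Control, 22 of 23 in TAC against Control and 18 of 23 in knockout against TAC. On FPKM as deposited there were 7 members in the knockout and 0 in knockout against TAC. With a minimum mean of 5 FPKM, 24 members were tested and 2, 3 and, of 22 transcripts, 2 were called in the knockout, in TAC and among knockout transcripts, while related genes came to 6 in TAC and 1 in knockout against TAC (fewer genes were tested). Quantile normalization, array weights and the main transcript in place of the gene each gave 2 members in knockout against TAC. Related genes in knockout against TAC came to 2 with no filter, with the sex covariate and with the main transcript. Leaving out each library in turn gave 4 to 5, 4 to 6 and 0 to 1 members (0 without knockout replicate 1, where Sirt5 had adjusted p = 0.0554), 5 to 9 transcripts, and 10 to 16, 10 to 14 and 1 to 4 related genes (1 without knockout replicate 3, TAC replicate 2 or TAC replicate 3; 2 without knockout replicate 1 or 2). No replicate block was warranted by the numbers, which pair no libraries by the labels or the values. With the replicate block, 4, 7 and 1 members, 6 transcripts and 10, 12 and 2 related genes were called. In TAC against Control, the sex covariate ended the limma calls of Hdac2 (adjusted p = 0.0746), Rcor2 (0.0937), Cbx1 (0.0621), Hdac4-206 (0.0728) and Chd4-202 (0.0945). In knockout against TAC it ended those of Carm1 (0.0662), Gadd45a (0.0736), Sirt5-201 (0.113) and Ezh1-203 (0.102). With the main transcript in place of the gene, Sirt7 reversed to 0.41 and Ehmt1 to 0.54 in the knockout, and Ezh1 to -1.32 against TAC, where another transcript was measured by construction. Over all tested genes the counts of 2362, 1755 and 372 ranged from 1487 to 2540, 1127 to 1966 and 133 to 524. Depth is unknown, so no counting error was computed, and the deviation of long transcripts from the group mean differed between libraries as described above.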
